A study of Danio rerio with 4 samples.

Results

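Unplaced scaffolds are stretches of the reference genome that the assembly holds in pieces of their own because they could not be assigned to a chromosome. Every sequence of the coverage tracks that was neither a numbered chromosome nor mitochondrial DNA and that reached at least 5000 bp was taken, which gave 868 scaffolds of the 993 sequences in the tracks. They summed to 28.1 Mb, 2.05% of the summed length of these scaffolds and chromosomes 1 to 25. Their lengths ran from 5000 to 368252 bp with a median of 18944.5 bp, and 84.2% of them were shorter than 50 kb. A further 99 scaffolds were shorter than 5000 bp and were left out. Their names are those of the GRCz11 build.

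The chromatin of the zebrafish pronephric duct, the kidney tubule of the embryo, was profiled at 30 hours post fertilization by ATAC-seq, in which a transposase tags DNA that is not held in closed chromatin. The 2 libraries of the actl6a group came from embryos labelled actl6a knockdown, which had received antisense morpholinos against the translation of actl6a. The 2 libraries of the control group came from embryos labelled WT, which had received a standard control morpholino. Both groups were of 1 transgenic line, in which a Na,K-ATPase alpha1A4 reporter gives GFP in the pronephric epithelium, and both were injected at the 1-cell stage. Ducts were picked by their GFP from 15 embryos after collagenase treatment, and 10000 to 20000 viable cells entered a library, so each value is a mean over a pool of cells and embryos. A morpholino blocks translation and leaves the gene in place, so coverage of the gene would not show the knockdown. Marker genes of the duct were not examined, because no annotation of GRCz11 was used here. The labels do not say whether the libraries of a group came from separate clutches. The p-values measure the spread between these samples, which may be technical. In limma, the test per scaffold used below, that spread was estimated mostly from all regions in the fit together.

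Actl6a, also called BAF53A, is an actin-related subunit of the SWI/SNF (BAF) chromatin remodelling complexes, which slide or evict nucleosomes and so open regulatory DNA. Scaffolds that stay unplaced are often rich in repeats or represent other haplotypes of a chromosomal stretch. Reads that match several places in a genome are then shared or lost according to the aligner's settings, which are not given in the sources used here, so the signal of a scaffold with near-identical copies elsewhere is uncertain. Coverage that is lower in every cell and coverage that is lost in part of the cells or embryos cannot be told apart in these pools.

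Signal is given below in multiples of each library's mean over chromosomes 1 to 25, so that 1 is the genome mean of that library. A track's smallest value above 0 was taken as 1 read in a 50 bp bin. On that reading a chromosomal bin held on average 18.2 and 20.2 reads in the actl6a libraries and 14.6 and 16.7 reads in the control libraries. The actl6a libraries were thus the deeper ones, and the mean of a bin at the median scaffold's level was 14.9 and 16.5 reads in them and 12.2 and 14.1 reads in the control libraries.

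Most scaffolds carried somewhat less signal than the chromosomes, and their levels were far more spread than those of the chromosomes as a whole. The length-weighted mean over all scaffolds was above 1, at 1.33 and 1.34 in actl6a libraries and 1.43 and 1.41 in control libraries. Without the 10 brightest scaffolds it was below 1 in every library. The median scaffold had 0.819 and 0.816 times the genome mean in the actl6a libraries, and 0.832 and 0.846 in the control libraries. The median 50 kb window of the chromosomes had 0.942 and 0.944 in the actl6a libraries and 0.932 and 0.935 in the control libraries. Averaged over the 4 libraries, 174 scaffolds (20.05%) lay under 0.5, 632 (72.8%) lay between 0.5 and 1.5, and 62 (7.14%) reached 1.5 or more. Of the 50 kb chromosome windows 1.201% lay under 0.5 and 1.61% reached 1.5. On chromosome 4 beyond 30 Mb the spread was nearer to that of the scaffolds: 15.8% of its windows lay under 0.5 and 4.89% reached 1.5, with a median of 0.854 against 0.827 for the scaffolds. Levels of the scaffolds went together across libraries: Pearson's r of log2(signal + 0.1) over 867 scaffolds was 0.986 between the actl6a libraries, 0.984 between the control libraries and 0.955 to 0.970 across the groups. Spearman's correlation was 0.965 between the actl6a libraries, 0.956 between the control libraries and 0.879 to 0.915 across the groups. These correlations are across scaffolds, which are not independent replicates.

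Weak coverage was most frequent in the shortest length class, but high signal was not rarer there. At 5 to 20 kb 8.12% of scaffolds reached 1.5 times the genome mean. That share was 7.60% at 20 to 50 kb, 3.30% at 50 to 100 kb and 2.17% at 100 kb or more. Scaffolds under 5000 bp, which are in no class, had a median signal of 1.01 and 0.986 in actl6a libraries. In control libraries they had 1.01 and 0.969. Of the 468 scaffolds of 5 to 20 kb, 29.3% lay under 0.5 times the genome mean, against 11.8% of the 263 scaffolds of 20 to 50 kb, 2.20% of the 91 scaffolds of 50 to 100 kb and 8.70% of the 46 scaffolds of 100 kb or more. In the shortest class the median signal was 0.713 ± 0.0000480 in actl6a libraries and 0.705 ± 0.0207 in control libraries (SD, n = 2 each), a difference smaller than the control SD. At 20 to 50 kb it was 0.894 ± 0.00264 in actl6a libraries and 0.908 ± 0.000395 in control libraries. At 50 to 100 kb it was 0.885 ± 0.0231 in actl6a libraries and 0.920 ± 0.0144 in control libraries.

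The class medians of the groups stood furthest apart in the longest class. Scaffold by scaffold, the median log2 difference of actl6a over control was only -0.023 there, against -0.021 at 50 to 100 kb. Scaffolds of 100 kb or more had a median signal of 0.815 and 0.814 in the actl6a libraries, against 0.944 and 0.945 in the control libraries. The difference of -0.130 exceeded the SD within each group, 0.00116 in actl6a and 0.000825 in control libraries, and the libraries did not overlap. An exact two-sided permutation test over the libraries gave p = 0.333. A design of 2 against 2 cannot go lower, here or for any other single value compared between these groups.

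**Figure D1:**
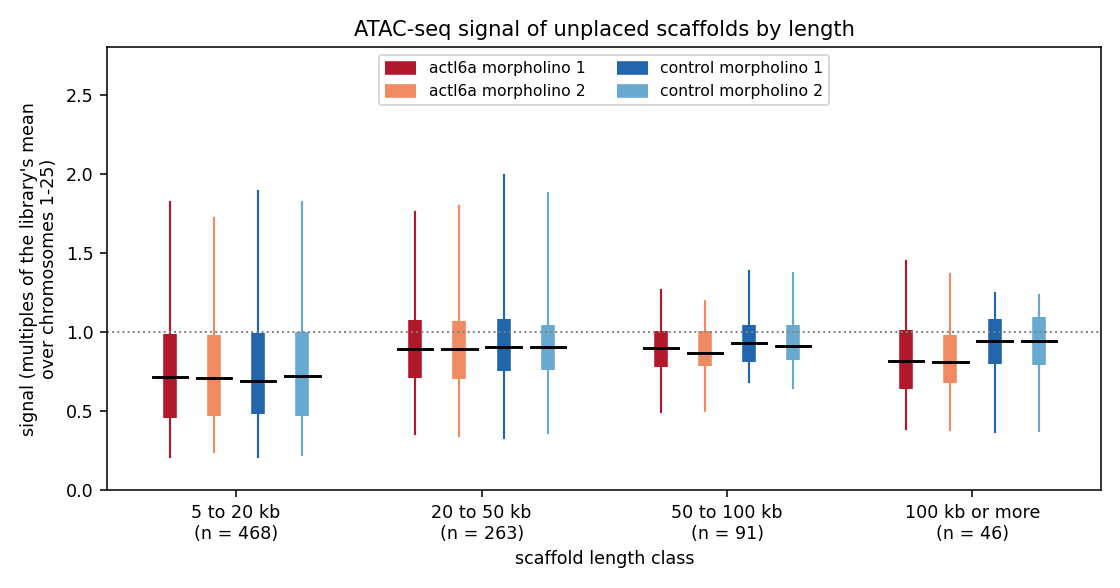
Signal of unplaced scaffolds (vertical axis, multiples of the library's mean over chromosomes 1 to 25) in 4 length classes (horizontal axis) and the 4 libraries; black lines are medians over scaffolds, thick bars the middle 50% and thin lines the middle 90%. The medians of the 2 actl6a libraries lie at 0.815 and 0.814 and those of the 2 control libraries at 0.944 and 0.945 in the class of 100 kb or more, while the shortest class has medians from 0.691 to 0.720 in all 4 libraries.

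A few scaffolds were covered at many times the genome mean, and they held a large share of all scaffold signal. In 20 scaffolds the mean of the 4 libraries was at least 3, and in 13 it was at least 10. The 10 brightest held 32.4% and 32.7% of the signal on the 868 scaffolds in actl6a libraries and 32.3% and 32.1% in control libraries. KN150271.1, 12637 bp long, had 193 and 208 times the genome mean in the actl6a libraries and 218 and 220 in the control libraries. Its signal was concentrated: its highest 1 kb window averaged 1645 over the 4 libraries, while on average 51.7% of its length had no coverage. KN150160.1, 17824 bp, had 154 and 149 in actl6a libraries and 157 and 152 in control libraries. KN149861.1, 14336 bp, had 53.1 and 53.1 in actl6a libraries and 53.2 and 50.6 in control libraries, and 12 of its 14 windows of 1 kb reached 5 in every library. In the test described below the adjusted p of these 3 brightest scaffolds in limma ran from 0.405 to 0.926. The groups did not overlap in the mean signal of KN150271.1, where the log2 difference was -0.13. Over the median of its bins it was 0.53 (adjusted p = 0.671 in limma), which rests on actl6a replicate 1 alone. The length without coverage was 47.8% in that library, 53.3% in actl6a replicate 2, and 52.9% and 52.6% in control libraries. The median bin was therefore above 0 in actl6a replicate 1 only.

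In all, 268 of the 27697 windows of 1 kb on the scaffolds reached 5 times the genome mean in all 4 libraries, which is 0.968% of them. On chromosome 4 beyond 30 Mb the share was 0.141%, and on the rest of the chromosomes 0.165%. The 268 windows lay on 42 scaffolds, and most other scaffolds had none. They were concentrated: KN149693.1 held 40, KN149692.1 held 35, KN150127.1 held 32 and KN150342.1 held 30. The share of 0.968% is thus not that of a typical scaffold. No bright window can be set beside a deposited peak, because both peak lists name chromosomes 1 to 25 only. Of the 15248 intervals of the actl6a list and the 24109 of the control list, 0 lay on a scaffold. At the density of the lists on chromosomes, 11.3 and 17.9 intervals per Mb, the 28.1 Mb of scaffolds would hold 319 actl6a and 504 control intervals. Whether peaks were called on scaffolds and then removed is not given in the sources used here, so the 0 is no measure of their accessibility.

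At the low end, KN150185.1, 8651 bp, was listed at 0 in every bin of all 4 libraries and entered no test. KN150161.1, 12647 bp, had 0.0560 and 0.0680 in actl6a libraries and 0.0227 and 0.0327 in control libraries, with 81.4% and 73.9% of its length without coverage in actl6a libraries and 91.7% and 87.7% in control libraries. KN149988.1, 9944 bp, had 0.0232 and 0.0837 in actl6a libraries and 0.0505 and 0.0913 in control libraries, which overlap. Neither difference passed the threshold, with an adjusted p in limma of 0.149 and 0.703. That of KN150161.1, whose groups did not overlap, passed it with a pseudocount of 0.01 (adjusted p = 0.031 in limma) and without a trend in eBayes (0.00052).

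Gaps in coverage were commoner on scaffolds than on the chromosomes as a whole in every library, but not commoner than on the long arm of chromosome 4. Of the scaffold length, 12.7% and 11.04% lay in empty bins in actl6a libraries and 13.7% and 11.96% in control libraries, values that overlap (difference -0.989 percentage points, exact two-sided permutation p = 0.667). On chromosomes 1 to 25 they made up 5.48% and 4.65% in actl6a libraries and 8.20% and 6.62% in control libraries. Beyond 30 Mb of chromosome 4 they made up 18.5% and 16.1% in actl6a libraries and 16.1% and 14.4% in control libraries. On scaffolds 2.96% of the length was without coverage in all 4 libraries at once, against 0.847% on the chromosomes and 7.20% beyond 30 Mb of chromosome 4. The outer 500 bp at the ends of the scaffolds were emptier, with 22.96% ± 1.27 without coverage in actl6a libraries and 26.4% ± 1.98 in control libraries (SD, n = 2 each). In the interior the shares were 11.5% ± 1.14 in actl6a libraries and 12.4% ± 1.22 in control libraries.

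The share without coverage was lower in each longer class up to 100 kb, in every library. It was higher again in the longest class. In the 5 to 20 kb class it was 16.3% and 14.5% in actl6a libraries and 19.7% and 17.1% in control libraries. The deeper actl6a libraries had fewer empty bins there, as on the chromosomes. At 100 kb or more it was 13.6% and 11.4% in actl6a libraries and 11.5% and 9.97% in control libraries, so that the mean was higher in actl6a by 1.754 points, though the libraries overlapped (exact two-sided permutation p = 0.667). An empty bin depends on depth. The length with signal under 0.2 was taken as well, a limit chosen after the data were seen. This limit depends on depth too. In actl6a libraries 1 read was 0.0549 and 0.0494 times the genome mean, and in control libraries 0.0683 and 0.0599. More reads thus fit under the limit in actl6a replicate 2 than in control replicate 1. In the longest class the share under 0.2 was 22.8% and 23.97% in actl6a libraries and 17.2% and 17.5% in control libraries, a difference of 6.04 points without overlap. Over all scaffolds it was 21.0% and 22.7% in actl6a and 20.1% and 20.1% in control libraries. On the chromosomes the order was the other way round, with 11.4% and 12.7% in actl6a libraries and 13.8% and 13.6% in control libraries.

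**Figure D2:**
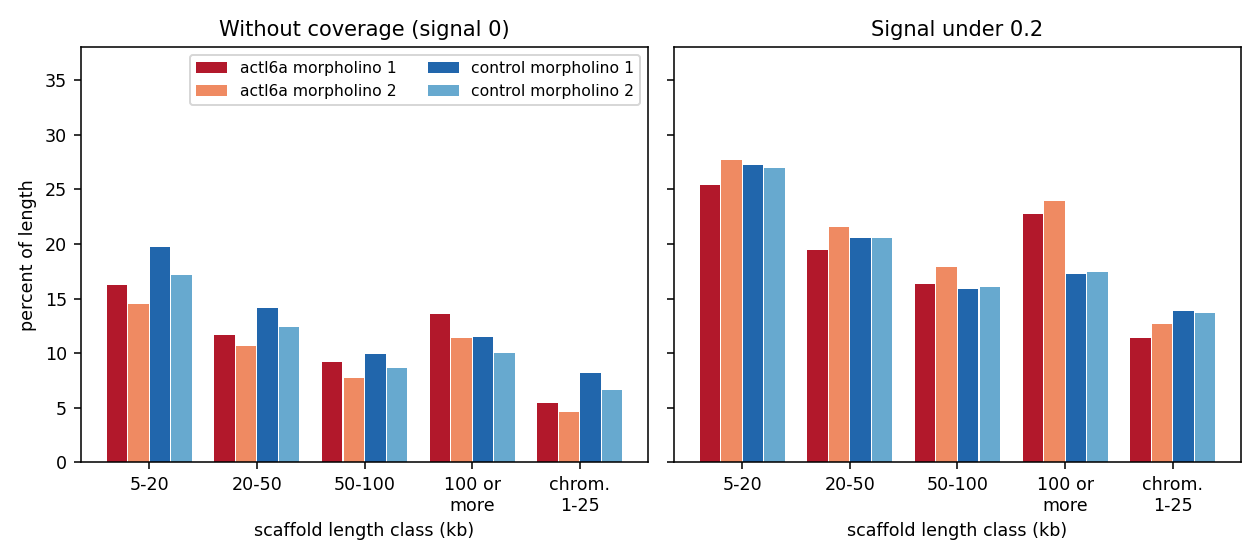
Percent of length without coverage (left) and with signal under 0.2 times the genome mean (right) in each library (bars), for 4 classes of scaffold length and for chromosomes 1 to 25; there is 1 value per library and class, so the bars carry no error. In the class of 100 kb or more the bars of the actl6a libraries reach 22.8% and 23.97% under 0.2 and those of the control libraries 17.2% and 17.5%.

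Scaffolds were then compared one by one between actl6a and control libraries, which asks where coverage of unplaced sequence differs between the groups. Whether the embryos of both groups carried the same haplotypes and copy numbers of these scaffolds was not tested. Signal of the 867 scaffolds with any coverage was tested on log2(signal + 0.1) with limma, fitted together with 26860 windows of 50 kb from chromosomes 1 to 25, with p-values adjusted by Benjamini-Hochberg over all 27727. A difference on this scale understates the change of weakly covered scaffolds. At an adjusted p under 0.05, 140 scaffolds were called, 46 higher and 94 lower in actl6a libraries. This is 16.1% of the scaffolds tested, against 3.2% of the chromosome windows and 3.6% of the whole table. By direction, 5.31% of scaffolds were called higher and 10.8% lower, against 1.35% and 1.85% of the chromosome windows and 1.48% and 2.13% of the whole table. All 140 had groups that did not overlap. Without regard to the test, the groups did not overlap in 185 scaffolds that were higher (21.3%) and 233 that were lower (26.8%), against 23.5% and 18.2% of chromosome windows and 31.4% and 48% of those on chromosome 4 beyond 30 Mb.

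The number of calls depended on which regions share the estimate of spread. Short scaffolds varied more between replicates than 50 kb windows, and the longest scaffolds varied less. The mean gap between replicates of a group had a median of 0.14 on the log2 scale at 5 to 20 kb. At 100 kb or more it was 0.046. In 50 kb windows the median gap was 0.062 between actl6a and 0.067 between control libraries. In a fit of the scaffolds alone 78 were called, 17 higher (1.96%) and 61 lower (7.04%), all 78 among the 140. Without control replicate 2 the calls were 78 higher and 117 lower. When each library was scaled to its median scaffold instead of its genome mean, the split turned to 68 higher and 76 lower, since that scaling sets the typical scaffold of each library to the same level.

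Over all 867 scaffolds the median log2 difference was -0.011, against 0.0095 over chromosome windows, so the typical scaffold was at nearly the same level in both groups. The middle 90% of scaffolds ran from -0.47 to 0.31. The middle 90% of chromosome windows ran from -0.14 to 0.15. The long arm of chromosome 4, a repeat-rich and largely heterochromatic arm in zebrafish, was the part of the chromosomes with the most calls. Beyond 30 Mb, 53.8% of its 931 windows were called, 16.3% higher and 37.5% lower in actl6a, and the middle 90% of its windows ran from -0.83 to 0.43. On all other parts of the chromosomes 1.38% of windows were called, 0.814% higher and 0.567% lower. The scaffolds thus lay between the long arm of chromosome 4 and the other parts of the chromosomes, but windows of 50 kb and scaffolds of other lengths differ in noise and the difference in shares was not tested.

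**Figure D3:**
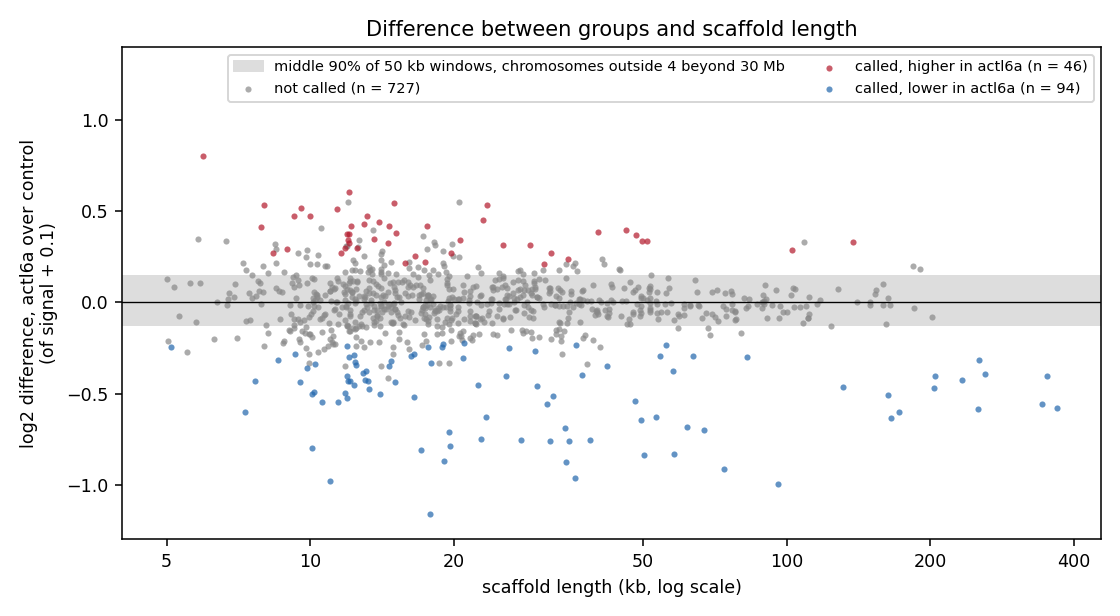
Log2 difference of signal, actl6a over control libraries (vertical axis, of signal + 0.1), against scaffold length (horizontal axis, kb, log scale) for 867 scaffolds; colours mark limma calls at an adjusted p under 0.05 and the grey band the middle 90% of 50 kb windows outside chromosome 4 beyond 30 Mb. The 94 scaffolds called lower occur at all lengths, and most of the scaffolds over 200 kb are among them.

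The very longest scaffolds were lower in actl6a libraries. In the 10 longest, all of at least 201817 bp, the actl6a libraries were both under the lower control library, and 9 of the 10 were called lower in limma, also in the fit of the scaffolds alone. Over all scaffolds the actl6a libraries were both under the lower control library in 26.8%, and 10.8% of those tested were called lower. On chromosome 4 beyond 30 Mb these shares were 48% and 37.5% of the windows. The cuts at the 10 and the 20 longest were not planned. Of the 20 longest 12 were called lower and 0 higher, and of the 46 of 100 kb or more 13 were called lower and 2 higher, which are the same numbers in the fit of the scaffolds alone. Calls made up 32.6% of that class, against 16.5% at 5 to 20 kb, 13.3% at 20 to 50 kb and 14.3% at 50 to 100 kb. Replicates of longer scaffolds lay closer together, as given above, and the shares were not tested against each other. The class was not shifted as a whole: its median log2 difference was -0.023 and its lower quartile -0.37, so a set of scaffolds with clear decreases stood beside many near 0.

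The longest scaffold, KN149696.2 with 368252 bp, had 0.589 and 0.623 times the genome mean in the actl6a libraries, against 0.955 and 0.956 in the control libraries. The actl6a libraries were both clearly below the control libraries, which nearly coincided. The log2 difference was -0.58 (SE 0.072, adjusted p = 2.7e-08 in limma). KN147651.2, 351968 bp, had 0.739 and 0.762 in actl6a libraries and 1.04 and 1.01 in control libraries, a log2 difference of -0.40 (SE 0.067, adjusted p = 1.7e-05 in limma). KN149690.1, 343018 bp, had 0.620 and 0.629 in actl6a libraries and 0.982 and 0.950 in control libraries, a log2 difference of -0.56 (SE 0.071, adjusted p = 5.2e-08 in limma). Thus the 3 longest scaffolds were near the genome mean in control libraries and at 0.589 to 0.762 of it in actl6a libraries. KN149686.1, 260365 bp, was above the genome mean in control libraries, at 1.26 and 1.24, and had 0.911 and 0.943 in actl6a libraries, a log2 difference of -0.39. KN147652.2, 252640 bp, had 0.694 and 0.703 in actl6a libraries and 0.910 and 0.880 in control libraries, a log2 difference of -0.32 (SE 0.070, adjusted p = 0.0019 in limma). With chromosome windows of 20 kb in the fit the last of these was no longer called, with an adjusted p in limma of 0.123. With the scaffolds alone in the fit the adjusted p of these longest scaffolds ran from 0.0042 to 0.042 in limma.

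In coarse steps the decreases of these 5 scaffolds ran along most of their length. Cut into 50 equal steps, KN149696.2 had both actl6a libraries under the lower control library in 42 steps and over the higher one in 4. KN147651.2 and KN149690.1 each had 42 steps below and 1 above. KN149686.1 had 40 steps below and 3 above, and KN147652.2 had 34 below and 3 above. In 1 kb windows the share with both actl6a libraries under both control libraries was 57.3%, 48.4%, 59.5%, 53.5% and 39.7%, from the longest down. Over all 1 kb windows it was 23.9% on scaffolds and 31.1% on chromosome 4 beyond 30 Mb. For the 50 steps no share over other regions is given. The empty bins moved with the level: KN149696.2 had no coverage over 18.7% and 14.3% of its length in actl6a libraries and 6.23% and 4.62% in control libraries, although the actl6a libraries were deeper.

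**Figure D4:**
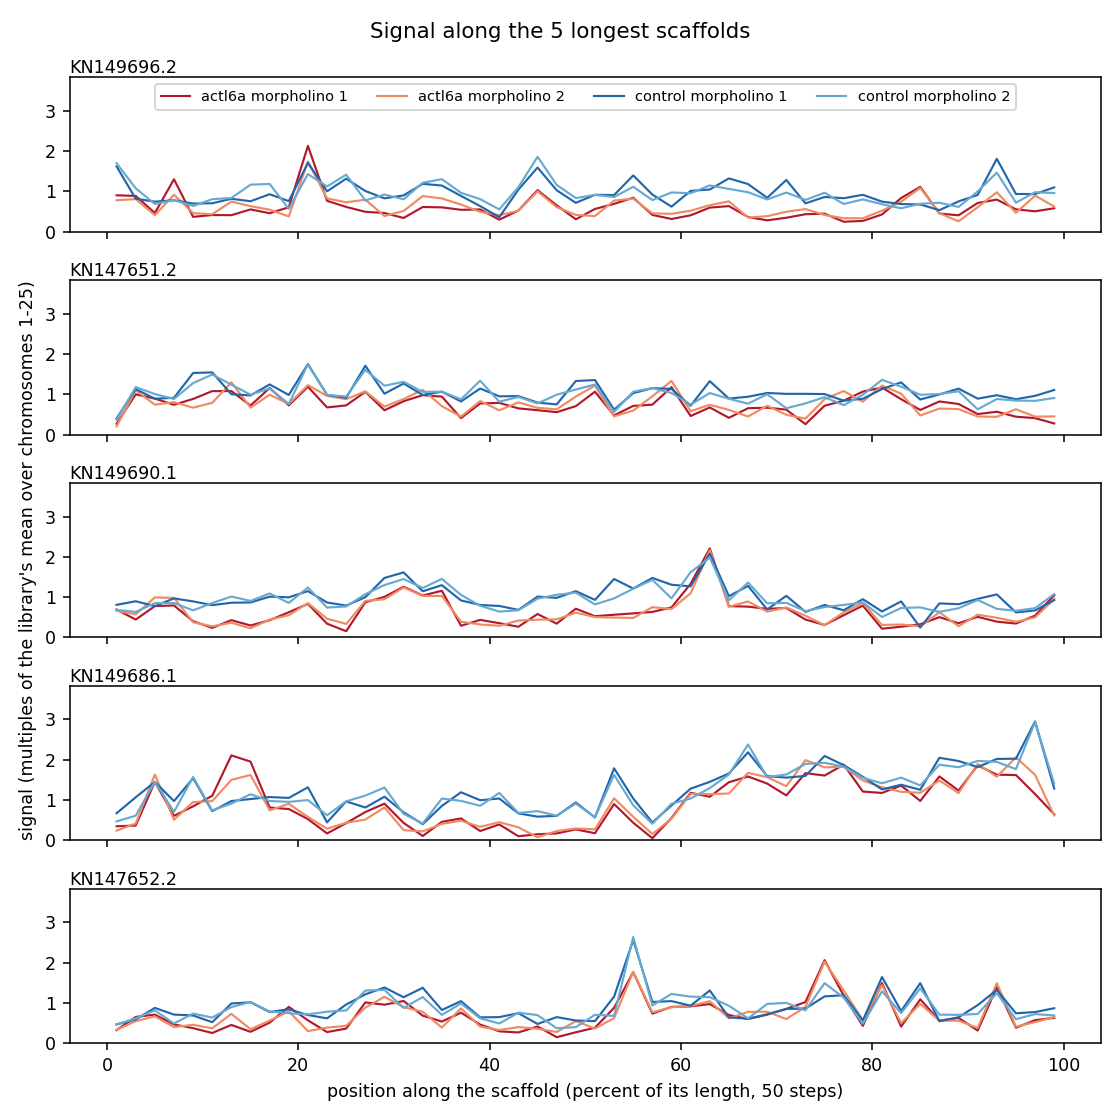
Signal (vertical axes, multiples of the library's mean over chromosomes 1 to 25) along the 5 longest scaffolds in 50 equal steps (horizontal axis, percent of scaffold length), 1 line per library. The lines of the actl6a libraries run below those of the control libraries in 34 to 42 of the 50 steps of each scaffold. In 1 to 4 steps of each scaffold they run above both control lines. At 85% of the length of KN149696.2, for example, the actl6a libraries have 1.11 and 1.08 and the control libraries 0.673 and 0.690. Whether the lines rise and fall together was not tested.

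The 5 largest decreases among called scaffolds came in lengths from 11023 to 95885 bp. KN149983.1, 17884 bp, had 0.312 and 0.444 in actl6a libraries and 0.976 and 0.947 in control libraries, a log2 difference of -1.16 (SE 0.095, adjusted p = 1.1e-12 in limma). Both actl6a libraries of this scaffold, which carried the largest decrease, were under the lowest control library by more than the spread within either group. KN150258.1, 95885 bp, had 0.364 and 0.439 in actl6a libraries and 0.915 and 0.880 in control libraries, a log2 difference of -0.997. In 76 of its 95 windows of 1 kb the actl6a libraries were both under the lower control library, and in 0 both over the higher one. KN149977.2, 11023 bp, had 0.348 and 0.356 in actl6a libraries and 0.778 and 0.804 in control libraries, a log2 difference of -0.98. KN150386.1, 35900 bp, had 0.368 and 0.411 in actl6a libraries and 0.842 and 0.865 in control libraries, a log2 difference of -0.96. KN149784.1, 73829 bp, had 0.437 and 0.439 in actl6a libraries and 0.917 and 0.914 in control libraries, a log2 difference of -0.92. In each of these 5 scaffolds the control libraries were at 0.778 to 0.976 times the genome mean and the actl6a libraries at 0.312 to 0.444. The ratio of the group means ran from 0.393 in KN149983.1 to 0.478 in KN149784.1. In the fit of the scaffolds alone their adjusted p in limma was 0.0032 to 0.0036.

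The 5 largest increases among called scaffolds came in lengths from 5952 to 23472 bp. KN149950.1, 5952 bp, had 0.574 and 0.409 in actl6a libraries and 0.227 and 0.243 in control libraries, a log2 difference of 0.81 (SE 0.11, adjusted p = 6.8e-07 in limma). The spread between its actl6a libraries was the widest of the 5 increases. Both lay above the control libraries, as the choice of these scaffolds required. KN150445.1, 12072 bp, had 0.482 and 0.497 in actl6a libraries and 0.277 and 0.297 in control libraries, a log2 difference of 0.61. KN150144.1, 14974 bp, had 0.400 and 0.442 in actl6a libraries and 0.263 and 0.249 in control libraries, a log2 difference of 0.55. With the median over bins in place of the mean this scaffold was no longer called (adjusted p = 0.113 in limma). KN150297.1, 23472 bp, had 0.401 and 0.435 in actl6a libraries and 0.253 and 0.262 in control libraries, a log2 difference of 0.53. KN149837.1, 8007 bp, had 0.841 and 0.803 in actl6a libraries and 0.503 and 0.573 in control libraries, also a log2 difference of 0.53. In the fit of the scaffolds alone the adjusted p of these 5 was 0.0149 to 0.0362 in limma.

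**Figure D5:**
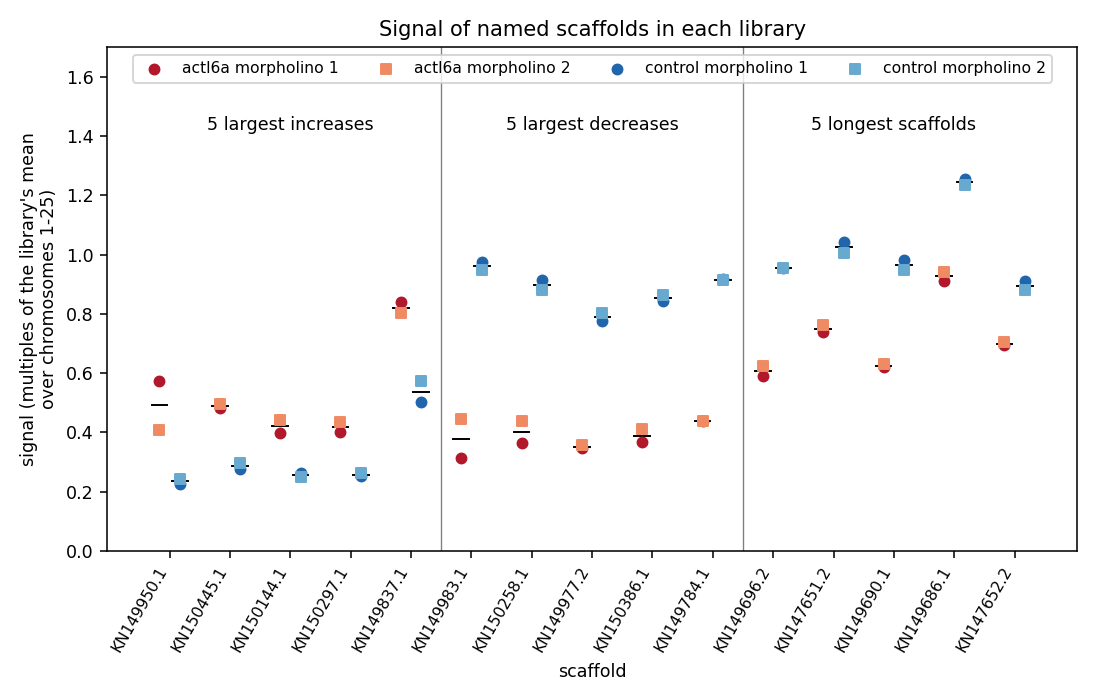
Signal (vertical axis, multiples of the library's mean over chromosomes 1 to 25) of 15 scaffolds (horizontal axis) in each of the 4 libraries, with actl6a libraries left of control libraries and black lines at the group means. In the 5 largest decreases the actl6a libraries lie at 0.312 to 0.444 and the control libraries at 0.778 to 0.976. No group overlaps the other in any of the 15, which the choice required of the increases and decreases but not of the longest scaffolds.

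Over all calls, the 94 scaffolds called lower had log2 differences from -1.16 to -0.22 with a median of -0.45, a median length of 20976.5 bp and a summed length of 5.22 Mb. The 46 called higher had log2 differences from 0.21 to 0.81 with a median of 0.36, a median length of 14579 bp and a summed length of 1.08 Mb. The scaffolds called lower had a median signal of 0.619 in actl6a and 0.958 in control libraries, so that in control libraries they were near the genome mean. Those called higher had 0.811 in actl6a and 0.639 in control libraries. The uncalled 727 had 0.848 in actl6a and 0.842 in control libraries. The share without coverage followed: it had a median of 14.8% in actl6a and 6.66% in control libraries in scaffolds called lower, and of 7.82% in actl6a and 14.6% in control libraries in those called higher. These values come from the scaffolds that the test picked and describe them only.

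How far called differences ran along the scaffolds varied widely. In a scaffold called lower, the actl6a libraries were both under the lower control library in a median of 50.6% of its 1 kb windows, and in 16.7% to 88.2% over the 94. In a scaffold called higher they were both over the higher control library in a median of 40.0%, and in 12.5% to 64.3% over the 46. Over all 1 kb windows of the 868 scaffolds, 23.9% were lower and 16.6% higher in this way. On chromosomes outside chromosome 4 beyond 30 Mb 15.9% were lower and 18.7% higher. Called scaffolds were picked by their mean, so a raised share of such windows in them follows from that choice. The lowest shares among them, 16.7% and 12.5%, did not reach those over all scaffold windows.

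A harder criterion was met in few places. In 28 scaffolds both actl6a libraries had at most 1/1.5 of the signal of both control libraries (3.23%, against 0.48% of the chromosome windows and 13% of those on chromosome 4 beyond 30 Mb), and in 7 they had at least 1.5 times as much (0.806%, against 0.126% and 1.56%). At a limit of 2 there were 5 scaffolds, all lower, and at 5/4 there were 22 higher and 59 lower. Windows nearly without signal in 1 group were rarer still. In 14 windows of 1 kb, on 11 scaffolds, both actl6a libraries were under 0.1 while both control libraries had at least 0.5, and in 2 windows the same held with the groups exchanged. This is 5.05 and 0.722 per 10000 windows, against 8.94 and 1.04 on chromosome 4 beyond 30 Mb and 0.0617 and 0.254 on the other parts of the chromosomes. KN149690.1 held 4 of the 14. Its window from 39001 to 40000 had 0.0412 and 0 in actl6a libraries and 0.731 and 0.713 in control libraries. The window of KN150636.1 from 19001 to 20000, chosen after its values were seen, had 0.524 and 0.548 in actl6a libraries and 0 and 0.0719 in control libraries. By these limits few windows of 1 kb were nearly without signal in 1 group only. The windows were counted over all scaffolds, not over the called ones alone. In bins of 50 bp, scaffolds called lower had a median empty share of 14.8% in actl6a and 6.66% in control libraries. In those called higher it was 7.82% in actl6a and 14.6% in control libraries. Called scaffolds were picked by their mean signal, with which the empty share goes, so these shares describe the picked scaffolds only.

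By name series, the shares called are given as counts and were not tested against each other or against the 16.1% called overall. Of the 7 scaffolds whose names begin with KN147, 5 were called lower, and the median log2 difference was -0.40, but these are long, with a median of 203829 bp. In the KN149 series 35 of 244 were called lower and 15 higher, and in the KN150 series 50 of 532 were lower and 28 higher. None of the 3 scaffolds of the KN148 series was called. In the KZ115 and KZ116 series together 4 were lower and 3 higher among 35 and 47 scaffolds. What the series stand for in the assembly was not examined.

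As a share of all signal in the tracks, mitochondrial DNA included, the scaffolds were slightly smaller in actl6a libraries. They held 2.69% and 2.70% of all signal in actl6a libraries and 2.86% and 2.85% in control libraries, a difference of -0.159 percentage points (exact two-sided permutation p = 0.333). This exceeded the SD within each group, 0.00700 in actl6a and 0.00627 in control libraries, and it remained at -0.118 without the 10 brightest scaffolds. The length-weighted mean signal without those 10 was 0.909 ± 0.00187 in actl6a libraries and 0.973 ± 0.00418 in control libraries (SD, n = 2 each). On log2(signal + 0.1) the length-weighted mean difference was -0.016 at 5 to 20 kb and -0.037 at 20 to 50 kb. It was -0.086 at 50 to 100 kb and -0.18 at 100 kb or more. This weighting gives the longest scaffolds the most influence. Unweighted, the class medians ran only from -0.0027 at 5 to 20 kb to -0.023 at 100 kb or more. Spearman's correlation of length and log2 difference over 867 scaffolds was -0.085. A graded trend with length was not tested.

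Scaffolds near the length minimum were below the genome mean on both sides of it. Just inside it, KN149951.1 with 5000 bp had 0.366 and 0.489 in actl6a libraries and 0.473 and 0.302 in control libraries. KZ115996.1 with 5023 bp had 0.5002 and 0.515 in actl6a libraries and 0.546 and 0.668 in control libraries. KZ115995.1 with 5114 bp had 0.761 and 0.739 in actl6a libraries and 0.974 and 0.841 in control libraries. Just outside, KZ115970.1 with 4964 bp had 0.523 and 0.550 in actl6a libraries and 0.743 and 0.657 in control libraries. KZ116057.1 with 4882 bp had 0.121 and 0.115 in actl6a libraries and 0.134 and 0.0884 in control libraries. KZ115978.1 with 4867 bp had 0.125 and 0.110 in actl6a libraries and 0.00421 and 0.0493 in control libraries. The 99 shorter scaffolds had a median signal of 1.01 and 0.986 in actl6a libraries and 1.01 and 0.969 in control libraries, which overlap.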

How the data were processed

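The authors deposited 1 track of signal per library, which holds coverage in bins of 50 bp with equal neighbours merged, and 1 peak list per group with start and end only. Per the submitters' processing notes the build was GRCz11 and Bowtie2, Trim Galore, FastQC, deepTools and MACS2 were used. Their settings, the handling of duplicate and multiply mapped reads, any shift of reads and the normalization are not given in the sources used here. Of low values (up to 20 steps), 99.9993% in each track were whole multiples of its smallest value within 0.1 of a step, from which the depth was inferred.

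Tracks were scaled to a mean of 1 over chromosomes 1 to 25. A scaffold's signal was its length-weighted mean. Scaffolds and 50 kb windows were tested with limma 3.58.1 in R 4.3.3 (lmFit, then eBayes with trend and robust, 2 residual degrees of freedom, two-sided) on log2(signal + 0.1), leaving out regions at 0 in all libraries (1 scaffold, 30 windows). The step was also run on simulated data, whose outcome is not reported here. Single values were compared by exact permutation. Values were computed in Python 3.11.15 with pandas 2.3.3, numpy 2.4.6 and scipy 1.17.1, and drawn with matplotlib 3.10.9. Alternatives covered scaling, pseudocount, low signal, regions and variance model of the fit, length minimum, summary per scaffold, threshold, replicate block and each library left out.

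Scaffolds named are the 5 largest called increases and decreases without overlap between groups, the 5 longest, and the 3 with the highest signal, the lowest signal and the most empty length. Members, classes and limits were chosen with earlier results of these data known.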

Additional observations from a re-analysis of the deposited data

How the results depend on the processing

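The count of 140 called scaffolds in limma fell to 78 with scaffolds alone in the fit, to 87 with 20 kb chromosome windows and to 66 of 400 tested with a minimum of 20 kb, where fewer were tested. All 78 were among the 140. In the other settings with all libraries it ran from 113 (without chromosome 4 windows) to 173 (replicate block). Without 1 library it ran from 127 to 195. The replicate numbers of the labels state no pairing, and replicate differences of the 2 groups correlated at -0.037 over scaffolds. With scaffolds alone, the replicate block gave 122. The block also called KN150271.1 (adjusted p = 8.6e-21 in limma, and 3.9e-06 with scaffolds alone). The split of 46 higher and 94 lower turned to 70 and 77 with the median over bins. In every setting with all libraries that tested them 65 of the calls were kept, 13 higher and 52 lower, and 82 were kept without each library in turn, among them all 15 called scaffolds named in the text. The scaffolds past 1.5 times numbered 35; there were 81 at 5/4, 5 at 2, 63 with the median over bins and 22 with a minimum of 20 kb.

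The median log2 difference of -0.011 reversed to 0.035 with the median over bins, a summary that moved chromosome windows to 0.055 as well, and was -0.024 with scaling to the median 50 kb window. Without 1 library it ran from -0.012 to -0.0044. The difference of medians, -0.0218, was -0.0356 with a minimum of 20 kb and -0.0321 with the same window scaling, and ran from -0.0290 to -0.0147 without 1 library. Without scaling it was -0.0669, but in the units of the tracks, whose means over the chromosomes were 2.46 to 2.49. That value is therefore not on the scale of the others. The difference in the share of signal, -0.159 points, was -0.132 with a minimum of 20 kb and -0.118 without the 10 brightest scaffolds, and ran from -0.164 to -0.154 without 1 library. The difference in length without coverage, -0.989 points, reversed to 1.74 for signal under 0.2, and ran from -1.87 to -0.112 without 1 library. A bin with 1 read lies under a limit of 0.05 in actl6a replicate 2 only, so that limit treats the libraries unequally. The limit of 0.2 admits unequal numbers of reads as well. Apart from what a setting fixes by itself, the cause of these changes was not tested. The limit of 0.2, the share without the 10 brightest and the block with scaffolds alone were chosen after seeing the data. The cuts at the 10 and the 20 longest scaffolds were not planned. No value exists for another overlap of peaks on scaffolds, since no interval lies there.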
